A study of Mus musculus with 27 samples.

Results

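The kappa variable genes (Igkv) form the set described here, chosen as every gene of the expression table whose symbol begins with Igkv followed by a digit. There were 103 of them among 30735 genes. Each had 1 transcript, all lay on chromosome 6, and they belonged to 19 families, the family being the number before the hyphen. RNA came from B cells of mice purified by B220, a surface antigen of B cells. The lymphomas numbered 19, all from animals labelled c-myc Igh transgenic, c-myc being an oncogene and Igh the immunoglobulin heavy chain locus. By line, 7 were labelled hv, 7 cr and 4 co, and 1 lung lymphoma, T39, carried labels of both hv and co. By site, 12 came from lung, 3 from peripheral and 4 from mesenteric lymph nodes. Non-malignant B cells came from spleens of the same 3 genotypes, which carry the c-myc Igh transgene too, and of wt animals, whose labels name no transgene. There was 1 sample of each genotype after 2 days of LPS, a molecule of the outer wall of bacteria that drives B cells to divide, and 1 without it, called resting here. The labels say neither what hv, cr and co stand for, nor which Igh elements drive c-myc, nor whether each sample is from an animal of its own. The p-values thus rest on sample-to-sample spread, part of which may be technical.

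An antibody light chain is made from either the kappa or the lambda locus. In a developing B cell the Rag1 and Rag2 recombinase joins 1 kappa variable gene to 1 of the joining segments (Igkj) that lie just before the constant gene Igkc, and the joined gene is then transcribed from the promoter of that variable gene. A cell can join again, replacing or adding to its first kappa chain, a process called receptor editing, and may turn to lambda. A population of many B cells therefore transcribes many variable genes, while the offspring of 1 cell transcribe mainly those which that cell had joined. The values are TPM, a relative abundance corrected for transcript length and for the total of the library, so levels of different genes can be set side by side. In bulk RNA, fewer cells with a joined gene and less RNA per cell cannot be told apart.

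4 of the variable genes led more than 1 lymphoma. Their last 90 coding bases are shown 5′ to 3′ since this end, after the last in-frame cysteine codon (capitals), is what each gene contributes to the antigen-binding loop made at the junction. The sequences are from GENCODE M21 on GRCm38, for Igkv1-135 at chr6:67610419-67610508 (plus strand), Igkv1-117 at chr6:68121738-68121827 (plus), Igkv3-5 at chr6:70663806-70663895 (plus) and Igkv5-48 at chr6:69726573-69726662 (minus), all within the variable exon and without any joining segment.
Igkv1-135: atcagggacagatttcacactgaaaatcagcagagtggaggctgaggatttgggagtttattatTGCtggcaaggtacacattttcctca
Igkv1-117: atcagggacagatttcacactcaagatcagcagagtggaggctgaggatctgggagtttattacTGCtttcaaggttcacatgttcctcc
Igkv3-5: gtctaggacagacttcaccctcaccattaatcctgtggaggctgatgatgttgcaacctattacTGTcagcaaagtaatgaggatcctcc
Igkv5-48: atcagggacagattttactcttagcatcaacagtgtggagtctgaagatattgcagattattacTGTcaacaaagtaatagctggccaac
In each of them 23 bases follow the cysteine codon. Of the 31-base words of the coding sequence, which the quantification tool uses by default to tell transcripts apart, 100% in Igkv5-48 occurred in no other Igkv gene, against 41.6% in Igkv1-117, 40.1% in Igkv1-135 and 23.7% in Igkv3-5. A coding sequence was found for 98 of the 103 genes, and none of them lacked words of its own.

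The depth was about 11531395 to 32032561 read pairs per sample, and 3654 to 29985 of them fell on Igkv genes. A count of 3 read pairs corresponded to 0.010 to 0.082% of the summed Igkv TPM of a sample, a floor that covers counting error only. B-cell markers were present in every group, with 9 genes summing to 1502 to 4036 TPM in lymphomas, 1115 to 2184 TPM in LPS samples and 2816 to 5219 TPM in resting samples. T-cell markers (9 genes) summed to 89.4 to 302 TPM in lymphomas, 38.1 to 51.0 TPM in LPS samples and 197 to 391 TPM in resting samples. Of these sums Cd2 alone held 57.4 to 240 TPM in lymphomas, 23.8 to 29.3 TPM in LPS samples and 161 to 294 TPM in resting samples. Cd3e was at most 3.62 TPM in any sample, while Cd3g reached 96.5 TPM in T39 and Trac 29.9 TPM in co resting. Macrophage markers (8 genes) summed to 10.2 to 312 TPM in lymphomas, 5.44 to 53.7 TPM in LPS samples and 156 to 877 TPM in resting samples. Erythroid genes (7 genes, mainly globins) took 16.2 to 1128 TPM in lymphomas and 164 to 2213 TPM in LPS samples, but 11675 to 111727 TPM in resting samples, which lowers the TPM of all other genes there. Lung epithelium markers (6 genes) summed to 0.063 to 12.9 TPM in lymphomas, 2.68 to 4.05 TPM in LPS samples and 1.78 to 2.66 TPM in resting samples. Of them the surfactant genes Sftpc, Sftpb and Sftpa1 were under 1 TPM in all samples, while Epcam reached 12.8 TPM in cr T20 and 6.24 TPM in hv T7, Krt8 2.22 TPM in hv T15 and Scgb1a1 1.18 TPM in hv T16. In 4 libraries Gm10800, a predicted gene, held over 1% of all TPM, the highest being cr LPS with 18.6%. The part of these differences in the results was not tested, except where a value without those libraries is given. The names of 9 lymphomas, all from lung, are written with joined parts and those of the other 10, which include all 7 from nodes, with separated parts; whether this marks a batch is not stated, and values within each kind of name are given beside the pooled ones.

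Lymphomas transcribed far fewer kappa variable genes than non-malignant B cells. The highest Igkv gene of a lymphoma held from 20.2 to 98.3% of the summed Igkv TPM, with a median of 80.2%, against 7.17, 40.8, 7.56 and 7.09% in wt, cr, co and hv LPS samples and 5.90, 7.82, 5.82 and 6.54% in wt, cr, co and hv resting samples. Every lymphoma lay above every resting sample, and cr LPS was the only non-malignant sample among the lymphoma values. The mean share was 74.5 ± 23.8% in lymphomas (SD, n = 19) against 6.52 ± 0.927% in resting samples (SD, n = 4), with an adjusted p of 8.5e-04 by an exact two-sided permutation test, Benjamini-Hochberg over 15 tests. Against LPS samples, at 15.7 ± 16.8% (SD, n = 4), the adjusted p of the same exact test was 0.0025. The difference from resting samples was 72.5 percentage points for lymphomas with joined names and 63.8 for those with separated names, and that from LPS samples 63.4 and 54.7 (adjusted p = 0.0052, 0.0075, 0.0052 and 0.022, exact permutation test).

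**Figure D1:**
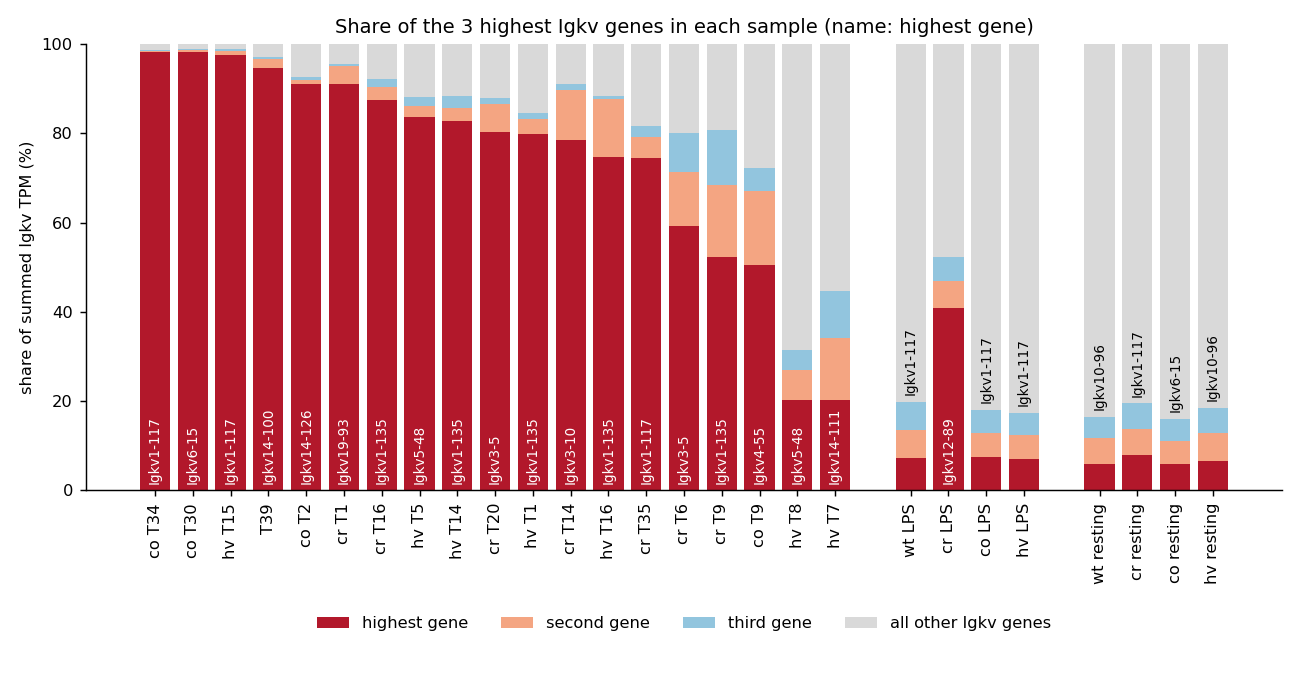
Share of the 3 highest Igkv genes in the summed Igkv TPM (vertical axis, %) of each sample, with lymphomas ordered by the share of their highest gene, then LPS and resting samples; the highest gene is named on or above each bar. In 17 of 19 lymphomas 1 gene held over 50%, while in non-malignant samples other than cr LPS the highest gene held at most 7.82%.

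The effective number of Igkv genes, the inverse of the sum of squared shares, says how many equally abundant genes would give the same concentration. It ran from 1.04 to 16.8 in lymphomas, with a median of 1.54. It was 34.9, 5.53, 35.9 and 38.3 in wt, cr, co and hv LPS samples and 37.5, 34.4, 39.5 and 35.7 in wt, cr, co and hv resting samples. Lymphomas and resting samples did not overlap, while the lymphomas hv T8, at 16.8, and hv T7, at 10.9, lay above cr LPS. The difference between lymphoma and resting means was -4.24 on the log2 scale (adjusted p = 8.5e-04, exact permutation test; -4.50 among joined and -4.0 among separated names). That between lymphoma and LPS means was -3.54 (adjusted p = 0.0017, exact permutation test; -3.80 among joined and -3.31 among separated names). The number of Igkv genes at 1 TPM or more was 14 to 80 in lymphomas, 83 to 91 in LPS samples and 89 to 94 in resting samples.

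**Figure D2:**
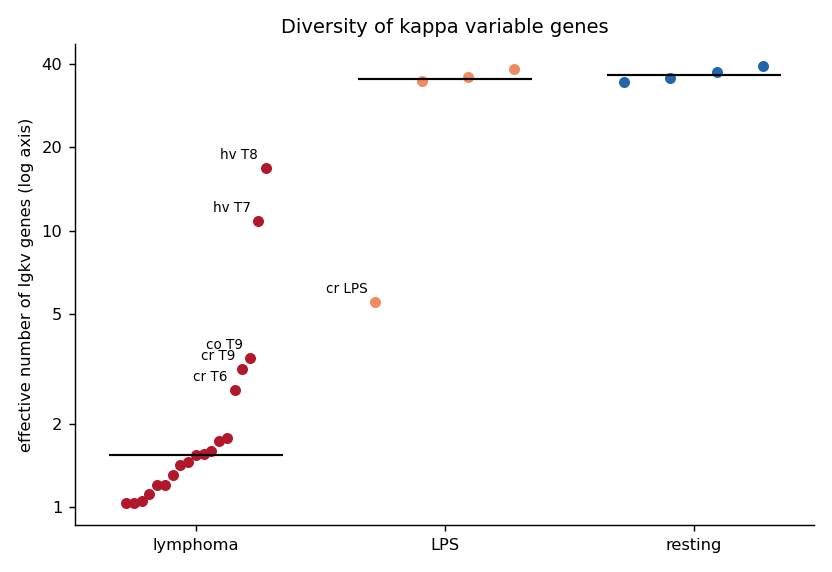
Effective number of Igkv genes per sample (log axis) in lymphomas, LPS and resting samples, points ordered by value within a group, with the group median as a line. 17 lymphomas lie at 3.47 or below, under every non-malignant sample, and cr LPS at 5.53 stands apart from the other LPS samples.

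Most of the set was lower in lymphomas when tested gene by gene, which restates the concentration above and is no separate support. A gene that leads few lymphomas is low in most of them, so its mean there can hardly rise. The 4 resting or 4 LPS samples alone can also carry a gene through the filter on TPM. Of the 103 genes, 91 reached 1 TPM in at least 4 samples of the lymphoma and resting groups, and 73 of these fell in lymphomas (limma on log2(TPM + 1), adjusted p under 0.05), where 17.4% of all genes tested fell. None rose, where 14.5% of all genes rose (at an unadjusted p under 0.05, 78 Igkv genes passed). The median log2 fold change was -3.22 over the Igkv genes tested, against -0.06 over all genes tested. Against LPS samples, 66 of 89 Igkv genes tested fell, where 8.56% of all genes fell, and none rose, where 5.27% of all genes rose (77 at an unadjusted p under 0.05). Their median log2 fold change was -3.30, against 0.03 over all genes. The 11 genes that led lymphomas had medians of 0 to 32.8 TPM over the lymphomas in which they held under 10%, the highest median being that of Igkv14-111.

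The summed Igkv TPM differed much less than the number of genes. It ran from 1440 TPM in cr T35 to 5626 TPM in co T30, with a median of 2502 TPM over lymphomas. It was 6011, 6463, 3895 and 5007 TPM in wt, cr, co and hv LPS samples and 5967, 3649, 5299 and 3860 TPM in wt, cr, co and hv resting samples. The groups overlapped. The mean was 3100 ± 1386 TPM in lymphomas (SD, n = 19) against 4694 ± 1122 TPM in resting samples (SD, n = 4), a difference that did not pass (adjusted p = 0.131, exact permutation test). Against LPS samples, at 5344 ± 1142 TPM (SD, n = 4), the log2 difference was -0.90 with an adjusted p of 0.047 by the exact permutation test. This call was lost among lymphomas with joined names (-1.0, adjusted p = 0.059, exact permutation test) or separated names (-0.81, 0.15), without the 4 libraries of high Gm10800 (-0.76), and without wt LPS (adjusted p = 0.131), cr LPS (0.144) or hv LPS (0.094). The constant gene Igkc went with it, at 3449 ± 1349 TPM in lymphomas, 5961 ± 1111 TPM in LPS samples and 5182 ± 1439 TPM in resting samples (limma adjusted p = 0.046 against LPS and 0.092 against resting).

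In all, 11 genes of 7 families led a lymphoma, 4 of them in 12 lymphomas. The family Igkv1 led 8 lymphomas, with Igkv1-135 in 5 and Igkv1-117 in 3. Igkv1-135 held 87.4% in cr T16, 82.8% in hv T14, 79.9% in hv T1, 74.7% in hv T16 and 52.3% in cr T9, all of them lung lymphomas. In TPM these lymphomas held 830 to 3380 of it, and the other 14 lymphomas at most 195 TPM. Igkv1-117 held 98.3% in co T34, 97.5% in hv T15 and 74.5% in cr T35, and it was the second gene of hv T7 with 13.9%. These 4 lymphomas came from 3 lines and 3 sites, and the other 15 held at most 43.9 TPM.

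Igkv3-5 led cr T20 with 80.2% and cr T6 with 59.2%, both from mesenteric nodes. Igkv5-48 led hv T5 from lung with 83.7% and hv T8 from a peripheral node with 20.2%. The 7 other genes led 1 lymphoma each. Igkv6-15 held 98.2% in co T30, Igkv14-100 held 94.6% in T39, and Igkv14-126 and Igkv19-93 each held 91.0%, in co T2 and cr T1. Igkv3-10 held 78.5% in cr T14, Igkv4-55 held 50.4% in co T9 and Igkv14-111 held 20.2% in hv T7.

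The heavy chain gives a second marker of which cells the lymphomas came from. In 15 of the 19, 1 heavy chain variable gene (Ighv) held over 80% of the summed Ighv TPM. The other 4 were co T30 with 26.7%, T39 with 48.4%, hv T7 with 59.4% and hv T8 with 70.7%. Among the 5 lymphomas led by Igkv1-135, the highest Ighv gene was Ighv1-64 in hv T1 and hv T14, Ighv1-7 in cr T16, Ighv5-12 in hv T16 and Ighv1-26 in cr T9. The hv T1 and hv T14 lymphomas were thus alike in the highest variable gene of both chains, the only such combination shared among the 19. Their joins were not compared, so a shared receptor is not shown. Ighv1-64 also led cr T1, whose kappa gene was Igkv19-93, and Ighv1-52 led both co T30 and co T34, whose kappa genes were Igkv6-15 and Igkv1-117. The last such pair was cr T20 and hv T8, both with Ighv6-3 and with different kappa genes.

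Several lymphomas held a second variable gene at a high level; a second join in the same cells and a second population of cells cannot be told apart in bulk RNA. In 6 lymphomas 2 or more genes held at least 10% of the summed Igkv TPM, and in 4 of them a second gene was of another family than the highest. The threshold of 10% was set by choice, and just inside it lay Igkv3-12 in hv T7 with 10.6%, just outside it Igkv3-7 in the same lymphoma with 9.49% and Igkv1-135 in cr T6 with 8.74%. With a threshold of 5% a second gene of another family was found in 6 lymphomas, and with 20% in 0.

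In cr T9, beside Igkv1-135 with 52.3%, Igkv14-126 held 16.2% (257 TPM) and Igkv2-137 held 12.2% (193 TPM). Both exceeded the highest resting sample, by 8.33-fold and 2.22-fold in TPM. In hv T16, beside Igkv1-135 with 74.7%, Igkv18-36 held 13%. This gene is scarce elsewhere, at 587 TPM in hv T16, at most 0.48 TPM in the other 18 lymphomas, 0 to 1.64 TPM in LPS samples and 0.56 to 2.22 TPM in resting samples. No word of 31 bases was shared between these second genes and Igkv1-135. Their last 90 coding bases, shown to make that distance visible, lie at chr6:67896553-67896642 (plus strand), chr6:67556127-67556216 (plus) and chr6:69992465-69992554 (minus) on GRCm38, again from GENCODE M21 with the last in-frame cysteine codon in capitals.
Igkv14-126: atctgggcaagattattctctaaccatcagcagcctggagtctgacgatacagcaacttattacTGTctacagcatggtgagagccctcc
Igkv2-137: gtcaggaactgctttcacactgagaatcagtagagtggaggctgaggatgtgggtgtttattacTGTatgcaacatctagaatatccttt
Igkv18-36: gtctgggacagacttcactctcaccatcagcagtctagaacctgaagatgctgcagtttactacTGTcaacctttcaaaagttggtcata
Over the whole coding sequence the identity to Igkv1-135 was 64.2% for Igkv14-126, 74.9% for Igkv2-137 and 63.8% for Igkv18-36.

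In cr T6, beside Igkv3-5 with 59.2%, Igkv8-28 held 12.0% (267 TPM, 5.59-fold the highest resting sample) and Igkv1-135 held 8.74%, which is 0.69-fold the highest resting sample. The cr T6 library is among the 4 with over 1% Gm10800, at 3.08%. In hv T7, Igkv14-111 with 20.2%, Igkv1-117 with 13.9%, Igkv3-12 with 10.6%, Igkv3-7 with 9.49% and Igkv8-27 with 5.72% all exceeded the highest resting sample in TPM, by 1.29 to 7.78-fold for the last 4. Summed by family, Igkv3 held the most in hv T7, with 27.9%. Of the 31-base words, 38.6% in Igkv3-12 and 46.5% in Igkv3-7 occurred in no other Igkv gene. The split of reads between relatives can thus enter the levels of these 2 genes, and its part was not tested. As quantified, hv T7 held several genes of unequal level, with an effective number of 10.9. Its plasma cell markers summed to 702 TPM, among lymphomas at 176 to 791 TPM, LPS samples at 625 to 797 TPM and resting samples at 339 to 545 TPM; their part in the result was not tested.

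In the other 2 lymphomas with more than 1 gene at 10% or more, the second gene was of the same family as the highest, and the split of reads between close relatives can then enter. In co T9, Igkv4-55 held 50.4% and Igkv4-50 16.7%, which is 17.2-fold the highest resting sample. In cr T14, Igkv3-10 held 78.5% and Igkv3-5 11.1%, 6.06-fold the highest resting sample. The last 90 coding bases of each pair are printed with the differing bases in capitals. From GENCODE M21 on GRCm38, Igkv4-55 lies at chr6:69607275-69607364 and Igkv4-50 at chr6:69700767-69700856 (both minus strand), and Igkv3-10 at chr6:70573141-70573230 and Igkv3-5 at chr6:70663806-70663895 (both plus strand).
Igkv4-55: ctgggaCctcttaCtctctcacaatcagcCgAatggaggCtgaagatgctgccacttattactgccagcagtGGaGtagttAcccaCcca
Igkv4-50: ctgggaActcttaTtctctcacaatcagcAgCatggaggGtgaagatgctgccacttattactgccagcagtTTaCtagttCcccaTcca
Igkv3-10: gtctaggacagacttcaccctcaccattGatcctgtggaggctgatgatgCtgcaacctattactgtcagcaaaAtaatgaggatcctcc
Igkv3-5: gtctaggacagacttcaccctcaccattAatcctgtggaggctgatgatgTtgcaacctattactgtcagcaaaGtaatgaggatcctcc
The members of the Igkv4 pair differed at 10 of these 90 bases and shared 6 words of 31 bases in all, while those of the Igkv3 pair differed at 3 and shared 173 words, 52.6% of those of Igkv3-5. The identity within these pairs was 90.1% and 97.5% over the whole coding sequence. The level of Igkv3-5 in cr T14 is thus less certain than that of Igkv4-50 in co T9.

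The variable genes other than those at 10% or more, summed, held 79.7 TPM in co T34 to 1775 TPM in hv T7, with a median of 366 TPM over lymphomas, which is 7.81% of the resting mean. Only hv T7 and hv T8 had over 1000 TPM of them. In this remainder Igkv14-111 was among the 5 highest genes in 13 of the 18 lymphomas in which it did not itself hold 10%, at 11.7 to 186 TPM, against 132 ± 32.0 TPM in resting samples (SD, n = 4). Its median share of the remainder was 11%, against 2.82 ± 0.212% of all Igkv TPM in resting samples. This ratio of shares, 3.90, was not particular to Igkv14-111. It was 11.1 for Igkv4-54, 7.21 for Igkv10-95, 4.17 for Igkv1-88 and 4.12 for Igkv9-123, among others. The medians of these 4 in TPM were lower than that of Igkv14-111, which was 32.8 TPM. Igkv14-111 was the second gene of 7 lymphomas, hv T1, hv T14, co T30, co T34, hv T15, cr T1 and T39, with 0.26 to 3.97%. The second genes of the lymphomas not yet named were Igkv9-124 in hv T5 with 2.27%, Igkv1-88 in cr T16 with 2.94%, Igkv17-121 in cr T35 with 4.65%, Igkv6-32 in cr T20 with 6.29% and Igkv19-93 in co T2 with 0.88%. The printed end of Igkv14-111, of which 93.8% of 31-base words occurred in no other Igkv gene, lies at chr6:68256780-68256869 (plus strand).
Igkv14-111: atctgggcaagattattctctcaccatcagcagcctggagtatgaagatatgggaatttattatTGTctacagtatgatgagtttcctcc
By its words Igkv14-111 is thus told apart from its relatives better than Igkv1-135 or Igkv1-117.

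The hv T8 lymphoma, from a peripheral node, was led by lambda and not by kappa. Its Iglv1, the most used lambda variable gene of mice, stood at 5802 TPM, against 4.19 to 365 TPM in the other 18 lymphomas, 694, 211, 661 and 1006 TPM in wt, cr, co and hv LPS samples, and 439, 162, 507 and 276 TPM in wt, cr, co and hv resting samples. Lambda genes made up 79.8% of its light chain variable TPM. The summed Igkv TPM of hv T8 was 1479 TPM, with Igkv5-48 at 299 TPM (20.2%), Igkv13-84 at 99.1 TPM (6.70%) and 80 genes at 1 TPM or more. Without hv T8 the difference in summed Igkv TPM between lymphomas and LPS samples was -0.85 on the log2 scale (adjusted p = 0.054, exact permutation test), a setting chosen after its value was seen.

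**Figure D3:**
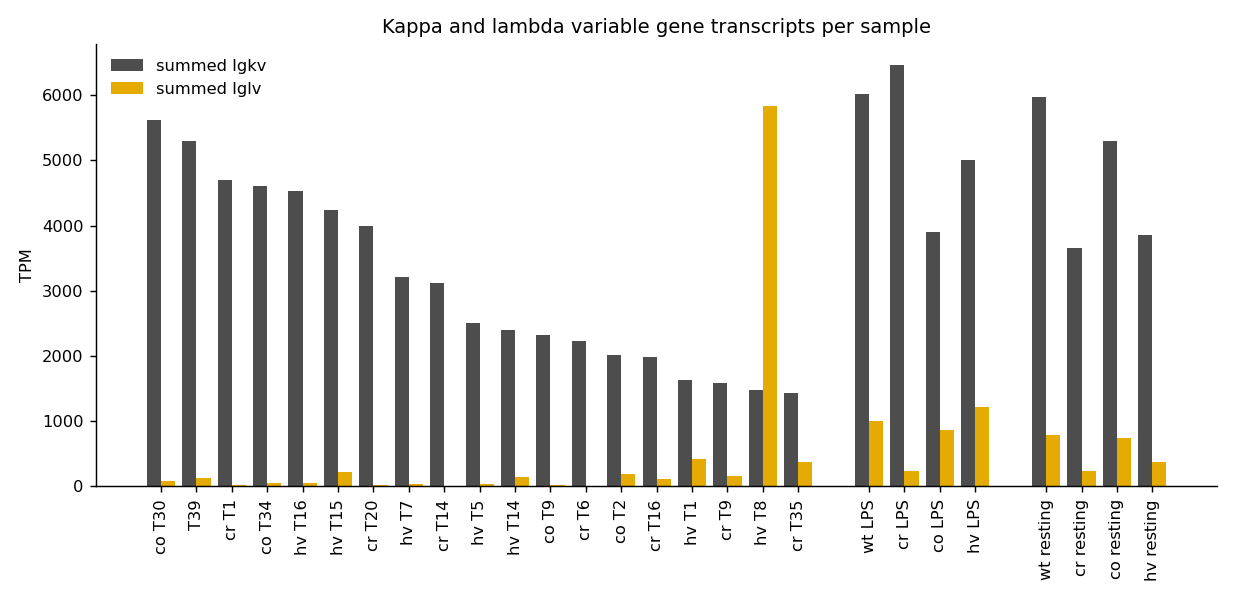
Summed TPM of kappa (Igkv) and lambda (Iglv) variable genes in each sample, lymphomas ordered by Igkv, then LPS and resting samples. In hv T8 the lambda bar reaches 5831 TPM and exceeds kappa; in all other samples kappa exceeds lambda.

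Over the groups, the lambda variable gene Iglv2 fell in lymphomas, at 2.05 ± 2.25 TPM against 94.9 ± 81.3 TPM in LPS samples and 85.2 ± 73.0 TPM in resting samples (limma adjusted p = 9.1e-07 against LPS and 2.4e-07 against resting). Iglv1 was called against LPS samples (log2 fold change -3.54 ± 1.15, limma adjusted p = 0.043) and not against resting samples (-2.72 ± 1.14, 0.070), with hv T8 going the other way. Of the 10 genes tested in the list of light chain constant, joining and lambda variable genes (13 members), Igkc, Iglv1 and Iglv2 fell in lymphomas against LPS samples, Iglv2 alone against resting samples, and none was called either way in LPS against resting samples. Of all genes, 8.56% fell in lymphomas against LPS samples and 17.4% against resting samples, and 25.2% rose and 33% fell after LPS. The joining segments of kappa are 36 to 43 bases long, so their TPM rest on few positions. The highest of the 5 held a median of 37.9% of their summed TPM in lymphomas, 40.3% in LPS samples and 36.1% in resting samples, with 63.4% in wt resting. In cr T6 Igkj2 held 66.2%, above all non-malignant samples. Higher still lay the 3 lymphomas whose Igkj TPM, not Igkv TPM, were the most concentrated. The highest segment held 86.8% of the summed Igkj TPM in co T30 and 83.4% in hv T15, both times Igkj4. In co T9 it was Igkj5, with 77.8%. In these 3 lymphomas Igkj1, Igkj2 and Igkj3, which lie before Igkj4 and Igkj5, were listed at 0. No non-malignant sample had all 3 at 0. The summed Igkj TPM was 24.6 to 532 TPM in lymphomas, 31 to 51.6 TPM in LPS samples and 41.2 to 74.1 TPM in resting samples.

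Rag1, the catalytic subunit of the recombinase, stood at 5 TPM or more in 5 lymphomas, with 58.2 TPM in cr T35, 46.7 in cr T9, 27.8 in co T9, 12.7 in hv T1 and 5.66 in hv T14. The other 14 lymphomas had at most 1.86 TPM, LPS samples at most 0.046 TPM and resting samples at most 0.41 TPM. As a group, lymphomas did not pass for Rag1 against resting samples (limma adjusted p = 0.297). These 5 included co T9 and cr T9, which had second kappa genes, and hv T1 and hv T14, which shared the highest variable gene of both chains. The other 4 lymphomas with a second gene at 10% or more had little Rag1, at 0.31 TPM in hv T16, 0.10 TPM in cr T6, 0.011 TPM in hv T7 and 0 TPM in cr T14, while cr T35, with the most, had 1 gene at 10% or more. In the 5 lymphomas with Rag1 at 5 TPM or more, the summed Igkv TPM was 1440 to 2405 TPM, against 1479 to 5626 TPM in the other 14. Lambda genes made up 1.2 to 20.7% of the light chain variable TPM of these 5, against 0.26 to 79.8% in the other 14. This is given as a description, since the 5 were picked by a measured level.

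In 10 of the 19 lymphomas the leading gene was also among the highest genes of resting B cells. In resting samples the 6 highest genes were Igkv10-96 with 5.90 ± 0.556%, Igkv1-117 with 5.87 ± 1.37%, Igkv1-135 with 4.80 ± 0.629%, Igkv6-15 with 4.80 ± 0.685%, Igkv1-110 with 4.38 ± 0.55% and Igkv19-93 with 4.13 ± 0.999% of the summed Igkv TPM (SD, n = 4). Neighbours in this order do not differ beyond their spread. Together they held 29.9%, and 4 of them were the highest gene of 10 lymphomas. Igkv10-96, the highest in resting samples, led no lymphoma and held at most 6.02% of the remainder in any. Other leading genes came from lower in the order, with Igkv5-48 at 1.56 ± 0.132%, Igkv3-5 at 1.0 ± 0.144% and Igkv14-126 at 0.417 ± 0.091% in resting samples. The overlap of 2 samples, the summed smaller share of each gene, had a median of 15.2% for a lymphoma with a resting sample and 6.51% for lymphomas with different highest genes, against 88.0% between resting samples.

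By position, the Igkv genes lie 22.3 to 3170 kb before Igkc, 38 in the same transcriptional orientation and 65 in the opposite one. Genes of the same orientation join Igkj by deletion and those of the opposite one by inversion. The 35 genes farthest from Igkc, from 1919 kb on, held 44.6 ± 2.08% of the Igkv TPM of resting samples (SD, n = 4) and were the highest in 12 lymphomas. The 34 in the middle held 21.2 ± 1.10% and led 3, and the 34 nearest, within 868 kb, held 34.2 ± 1.26% and led 4. Genes oriented as Igkc held 45.3 ± 3.22% in resting samples and led 14 of 19 lymphomas. No test was made of these counts, in which Igkv1-135, at 3116 kb, and Igkv1-117, at 2605 kb, make up 8 lymphomas.

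**Figure D4:**
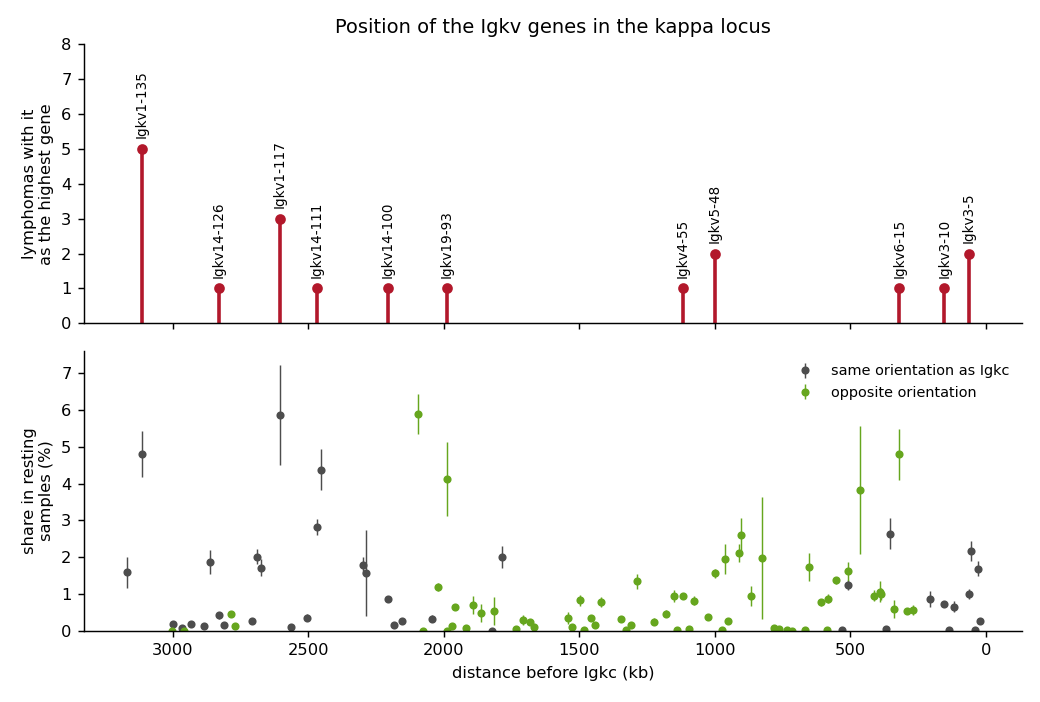
Top, number of lymphomas in which each Igkv gene was the highest; bottom, mean share of each Igkv gene in the 4 resting samples (error bars, SD); both against the distance before Igkc in kb. Leading genes lie along the whole locus, with Igkv1-135 near its far end in 5 lymphomas.

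No difference between lines or sites of lymphoma passed. The highest gene held 65.6 ± 31.8% in hv lymphomas and 74.7 ± 14.2% in cr lymphomas (SD, n = 7 each; adjusted p = 0.615, exact permutation test). It held 84.5 ± 23.0% in the 4 co lymphomas against 70.2 ± 24.1% in the 14 of hv and cr (adjusted p = 0.539, exact permutation test). In the 7 node lymphomas it held 73.4 ± 26.7%, against 73.3 ± 23.4% in the 11 lung lymphomas of a known line (adjusted p = 0.995, exact permutation test). The summed Igkv TPM gave adjusted p-values of 0.86, 0.539 and 0.81 for the same comparisons by the exact permutation test. Site and the writing of names overlap. Among joined names the hv minus cr difference in the highest share was 9.42 percentage points and among separated names -23.1, against -9.16 over both (adjusted p = 0.818, 0.429 and 0.615, exact permutation test). The co minus hv and cr difference was 4.86 percentage points among joined names, while separated names hold 1 co lymphoma. The node minus lung difference was 25.9 percentage points among separated names (adjusted p = 0.429, exact permutation test), and joined names hold no node lymphoma.

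Few kappa variable genes were called after LPS, while 6981 of the 11999 genes tested in the whole table were. Of 92 Igkv genes tested, none rose, where 25.2% of all genes rose, and 5 fell, where 33% of all genes fell (limma adjusted p under 0.05; 7 at an unadjusted p under 0.05). The median log2 fold change was 0.00036 over these genes, against -0.16 over all genes tested. With median-of-ratios scaling 2 rose and 7 fell, without wt LPS 9 genes were called, and without co resting 3. With genotype as a replicate block more were called, most of them lower, as given under the dependence on processing below. The summed Igkv TPM was 5344 ± 1142 TPM in LPS samples and 4694 ± 1122 TPM in resting samples (SD, n = 4 each; adjusted p = 0.557, exact permutation test, the smallest p it allows being 0.029). The overlap of shares between an LPS and a resting sample had a median of 86.8% without cr LPS, near the 88.0% between resting samples. Of the genes highest in LPS samples other than Igkv12-89, Igkv1-117 held 6.95 ± 0.669%, Igkv1-110 5.02 ± 0.952%, Igkv6-15 4.98 ± 0.719%, Igkv1-135 4.91 ± 1.37% and Igkv10-96 3.80 ± 1.16% (SD, n = 4). Igkv1-117 averaged 367 ± 57.6 TPM in LPS samples and 271 ± 65.9 TPM in resting samples (limma adjusted p = 0.084, but 0.029 with median-of-ratios scaling). Igkv10-96 averaged 199 ± 66.9 TPM in LPS samples and 274 ± 57.0 TPM in resting samples (limma adjusted p = 0.095, but 0.044 with that scaling).

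The genes that fell were led in level by Igkv6-23, at 115, 82.4, 88.9 and 117 TPM in wt, cr, co and hv LPS samples, against 149, 124, 161 and 247 TPM in wt, cr, co and hv resting samples. The groups did not overlap (log2 fold change -0.72 ± 0.22, limma adjusted p = 0.015). Its relative Igkv6-25 had 37.1, 18.5, 24.6 and 33.3 TPM in wt, cr, co and hv LPS samples, against 64.1, 45.3, 74.4 and 47.5 TPM in wt, cr, co and hv resting samples. Again the groups were apart (-1.02 ± 0.24, limma adjusted p = 0.003). Igkv4-57-1 averaged 13.9 ± 3.66 TPM in LPS samples and 21.2 ± 2.77 TPM in resting samples (-0.59 ± 0.20, limma adjusted p = 0.021). Igkv1-115 and Igkv4-51, named after their values were seen, averaged 0.157 and 2.29 TPM in LPS samples and 4.80 and 4.63 TPM in resting samples. In Igkv1-115 only 9.64% of the words occurred in no other Igkv gene. Without the 4 libraries of high Gm10800, Igkv6-23 and Igkv4-57-1 did not pass (limma adjusted p = 0.053 and 0.173), and Igkv4-57-1 was also lost without co LPS, without co resting or with no filter on low values.

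The cr LPS sample stood apart through Igkv12-89. This gene had 2639 TPM there, 40.8% of the summed Igkv TPM and about 9932 read pairs, against 18.7, 15 and 126 TPM in wt, co and hv LPS samples and 32.4, 39, 34.5 and 22.3 TPM in wt, cr, co and hv resting samples. The hv LPS sample, with 2.51%, was also above the resting range of 0.54 to 1.07%, while wt and co LPS samples, with 0.31 and 0.39%, were below it. The gene is distinct, 97.0% of its 31-base words occurring in no other Igkv gene, and its end lies at chr6:68834846-68834935 (minus strand).
Igkv12-89: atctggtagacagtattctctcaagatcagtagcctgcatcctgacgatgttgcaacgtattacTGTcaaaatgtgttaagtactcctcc
With Igkv12-89 left out, cr LPS had an effective number of 24.7, still the lowest of the LPS samples, whose others were at 34.7 to 37.3. The highest heavy chain gene of cr LPS, Ighv1-55, held 31.2% of Ighv TPM, against 4.74 to 12.4% for the highest in the other LPS samples. This is also the library with 18.6% Gm10800. Its Jchain, which is made by antibody-secreting cells, was at 75.7 TPM, against 12.4 to 36.7 TPM in the other LPS samples. Resting samples had 32.8 to 80.4 TPM of it. Of the other plasma cell markers, Fkbp11, Sdc1 and Tnfrsf17 were also highest in cr LPS among LPS samples. Slamf7 was lowest there and the remaining markers lay in between. Together the plasma cell markers summed to 797 TPM, against 625 to 794 TPM in the other LPS samples. The part of these in the result was not tested. Igkv12-89 was not called over the group (1.64 ± 1.68, limma adjusted p = 0.438). Leaving out the libraries of high Gm10800 removes wt resting and also cr and hv LPS, the LPS samples with the most Igkv12-89. Among the samples that remain, Igkv12-89 was lower after LPS (-0.86, limma adjusted p = 0.013). In lymphomas it was at 0 to 21.9 TPM.

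**Figure D5:**
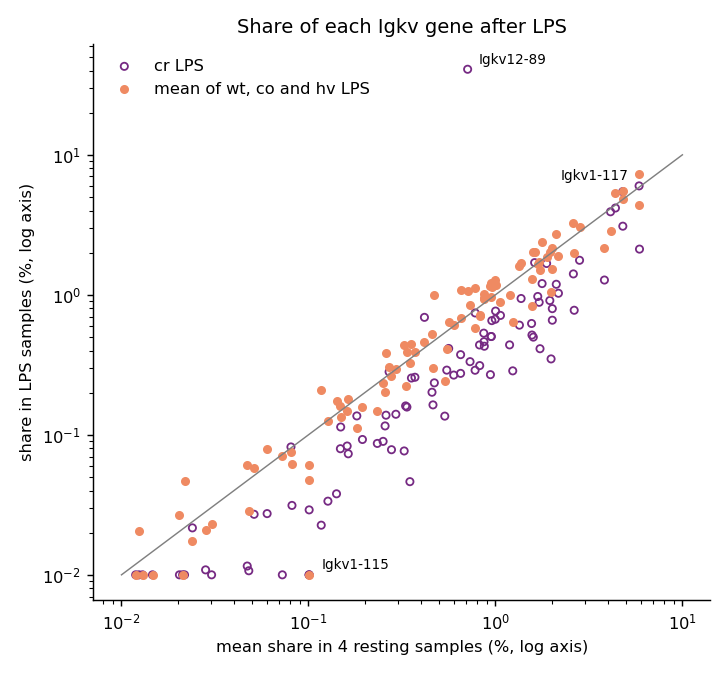
Share of each Igkv gene in LPS samples (vertical, %, log axis; filled, mean of wt, co and hv LPS; open, cr LPS) against its mean share in the 4 resting samples (horizontal, %, log axis), for the 97 genes at 0.01% or more in resting samples, with lower LPS values drawn at 0.01%. Most genes lie along the line of equal shares; Igkv12-89 in cr LPS is at 40.8%, and most of its other genes lie below the line.

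Genes that take part in kappa joining and transcription were read as lists beside the variable genes. Of 11 recombination and end joining genes, 8 were tested in LPS against resting samples. Xrcc6 and Xrcc5, the subunits of the Ku end-binding protein, rose, as did Hmgb1, a cofactor of the recombinase, while Prkdc and Dclre1c (Artemis, which opens hairpin ends) fell. Xrcc6 was at 73.5 ± 13.1 TPM in LPS samples and 25.1 ± 4.74 TPM in resting samples (SD, n = 4 each; limma adjusted p = 4.4e-05). In lymphomas, Xrcc6, Xrcc5, Hmgb1 and Lig4, the ligase of end joining, rose and Dclre1c fell, of 10 tested against resting samples, and none was called against LPS samples. Lig4 was at 6.58 ± 4.47 TPM in lymphomas and 1.62 ± 0.271 TPM in resting samples (limma adjusted p = 0.023). These counts stand beside 25.2% of all genes higher and 33% lower after LPS, and 14.5% and 17.4% in lymphomas against resting samples. Against LPS samples, 5.27% of all genes were higher in lymphomas and 8.56% lower, so the lack of calls among 10 genes tested is near these shares.

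Of 16 factors that bind variable gene promoters or the kappa enhancers, all tested, 6 fell after LPS (Spi1, Spib, Ikzf3, Pou2f1, Irf8 and Ebf1), where 33% of all genes fell, and none rose, where 25.2% of all genes rose. The B-cell factor Ebf1 was at 33.2 ± 15.5 TPM in LPS samples and 146 ± 70.4 TPM in resting samples (limma adjusted p = 8.0e-04), and Pou2af1, the coactivator at octamer sites of variable gene promoters, was at 146 ± 29.4 TPM in LPS samples and 129 ± 55.7 TPM in resting samples (limma adjusted p = 0.456). In lymphomas against resting samples Tcf3 and Yy1 rose and Irf4, Rela and Ebf1 fell, beside 14.5% of all genes higher and 17.4% lower. Against LPS samples Yy1 rose and Irf4 fell, beside 5.27% of all genes higher and 8.56% lower. These counts of 16 factors are near the shares of all genes, apart from the lack of genes that rose after LPS. Among the 4 receptor partners, Ighm rose and Cd79a, Cd79b and Ighd fell after LPS, Ighd alone fell in lymphomas against resting samples, and Cd79a and Cd79b were higher in lymphomas than in LPS samples. The shares of all genes just given are the background of these counts too.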

How the data were processed

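Libraries were stranded, depleted of ribosomal RNA and sequenced in pairs, per the labels' protocols. The tools named were FastQC and kallisto 0.43 and the build mm10 (GRCm38), per the submitters' processing notes. The authors deposited TPM for 88198 transcripts in 27 samples. Annotation and strand setting: not given in the sources used here. Reads of antisense and overlapping genes may thus be mixed. Transcript TPM were summed to 30735 genes, of which 740 had no symbol, by Ensembl identifier. A further 57 Igkv symbols of the name table were not analysed here. Kallisto divides reads among similar transcripts, so close Igkv relatives are uncertain.

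The deposited TPM times effective length, divided by its most frequent low step, gave read pairs; 68.3 to 76.8% of values from 1 to 20 read pairs were whole within 0.02, so they served for depth only.

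Summed TPM as log2(TPM + 1), the highest share and the log2 effective number were compared between groups by an exact permutation test of means, two-sided, with Benjamini-Hochberg adjustment over 15 tests. Gene by gene, log2(TPM + 1) was fitted with limma 3.58.1 (trend and robust; R 4.3.3) where TPM reached 1 in at least 4 samples of the groups compared, adjusted over all genes, threshold 0.05. This scale understates changes of low genes, and ± on a log2 fold change is a standard error. Other work used scipy 1.17.1, Biopython 1.88, matplotlib 3.10.9, numpy 2.4.6 and pandas 2.3.3 under Python 3.11.15, and the tests were tried on simulated data. Groups came from the labels, and T39 was left out of comparisons of lines and sites. Named genes were Igkv genes at 10% or more in a lymphoma, the second gene of each lymphoma, the 6 highest of resting and of LPS samples, up to 6 called each way after LPS with a mean of 5 TPM or more, and members of 5 gene lists, 1 of which is not reported here, and 6 marker lists. The members and lists were chosen with earlier results of these data known. Alternatives were gene weights, families, diversity measures, filters, scaling, kind of name and left-out samples.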

Additional observations from a re-analysis of the deposited data

Results flagged for a closer look

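Outliers were sought in 29 groups of 4 to 7 samples, and chance flags about 1 in 20 such groups. The 8 found fall on few samples. In cr LPS the highest share (40.8%), the effective number (5.53) and the share of Igkv12-89 (40.8%) lay far from the other LPS samples, at 7.09 to 7.56%, 34.9 to 38.3 genes and 0.31 to 2.51%. In co T9 the highest share (50.4%) and the effective number (3.47) lay far from the other co lymphomas, at 91.0 to 98.3% and 1.04 to 1.21 genes. Summed by family, Igkv4 held 81.7% in co T9, and the leading family of the other co lymphomas 91.7 to 98.5%. The part of reads split between Igkv4 relatives was not tested. Smaller gaps were those of Igkv1-110 in cr resting (5.21%, others 4.08 to 4.15%), Igkv6-15 in co resting (5.82%, others 4.41 to 4.52%) and Igkv6-15 in wt LPS (3.91%, others 5.2 to 5.46%).

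Outside the kappa genes, Iglv1 in hv T8, at 5802 TPM, exceeded all non-malignant samples, at 162 to 1006 TPM. Rag1 was at 58.2 TPM in cr T35, 46.7 TPM in cr T9, 27.8 TPM in co T9, 12.7 TPM in hv T1 and 5.66 TPM in hv T14, against 0 to 0.41 TPM in non-malignant samples.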

How the results depend on the processing

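The gains in the highest share and the losses in effective number and in Igkv genes called in lymphomas kept their direction and their side of the threshold under every alternative run. The lower summed Igkv TPM of lymphomas against LPS samples (-0.90 on the log2 scale) did not: it missed the threshold with TPM weighted by effective length (-0.85), without the 4 libraries of high Gm10800 (-0.76), for joined names (-1.0) or separated names (-0.81) alone, without hv T8 (-0.85, added after seeing the data), and without some LPS samples (range -1.04 to -0.80). The cause was not tested, beyond the smaller groups. Igkv genes called after LPS numbered 5, but 9 (2 higher, 7 lower) with median-of-ratios scaling, 3 (1 higher, 2 lower) without the libraries of high Gm10800, and 3 to 9 with 1 sample left out (9 without wt LPS, 3 without co resting). With genotype as a replicate block they were 13, 1 higher and 12 lower. Each genotype gave 1 LPS and 1 resting sample. Deviations of the same genotype correlated at 0.058, 0.222, 0.340 and 0.063 in wt, cr, co and hv. In 2 of 4 genotypes, cr and co, the LPS sample correlated best with the resting sample of its own genotype. The main fit leaves genotype out, so the count depends on this choice. The block left summed TPM (0.19), highest share (9.14) and effective number (-0.69) uncalled. Igkv12-89 reversed to -0.86 without the libraries of high Gm10800. Without cr LPS the effective number differed by -0.015 and the highest share by 0.752 percentage points between LPS and resting samples. No lymphoma was under the limit set for low kappa (458 TPM), so that alternative changed nothing. Second genes of another family were found in 4 lymphomas at 10%, in 6 at 5%, in 0 at 20%, and in 3 with weights by effective length. Levels under 3 read pairs, up to 0.082% of the Igkv TPM, and close relatives are beyond this depth and method.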
